A study of Bubalus bubalis with 12 samples.

Results

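Cytosolic ribosomal protein genes were examined in the ruminal wall of dairy buffaloes (*Bubalus bubalis*) fed with or without green forage. They were taken from the deposited expression table by gene symbol: RPL or RPS followed by digits and an optional letter or L suffix, RPSA, RPLP0, RPLP1 and RPLP2, with the S6 kinases (RPS6K) left out. To these were added LOC112585098 and LOC102394865, which carry the name ribosomal protein L9. This gave 84 of 34037 genes. Of the 84, 75 code for core ribosomal proteins, 31 of the small (40S) and 44 of the large (60S) subunit, 7 are paralogues and 2 are the LOC genes. The core symbols RPL17 and RPL41 were looked for without a match and were not analysed here.

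The animals were 12 Italian Mediterranean dairy buffaloes, 8.2 ± 0.6 years old as the methods of the study give it, from a trial of 60 days at a commercial dairy. The 6 animals of the control group received a total mixed ration (TMR), and the 6 of the treated group received TMR with green feed, freshly cut ryegrass that made up about 30% of the diet. One library was made per animal from total RNA of frozen ruminal wall, and none were pooled. Levels are given as FPKM, counted fragments scaled by gene length and by the total of the library. This lets genes of different length be set side by side. Only fragments with a mapping quality of at least 30 were counted. Differences in level between genes can therefore also reflect reads that fit more than 1 place.

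Cytosolic ribosomes translate nuclear-encoded messages. Each is built from a small subunit, which binds the message and decodes it, and a large subunit, which joins the amino acids and releases the chain through its exit tunnel. The genes of most ribosomal proteins are active in every tissue, and their messages start with a run of pyrimidines (the TOP motif) through which the mTOR pathway and LARP1 set their translation. Ribosomal proteins made in excess of their partners are degraded, and free RPL5 and RPL11 bind MDM2, the ligase that marks p53. In the rumen, the basal layer of the stratified epithelium divides continuously to replace the cells that are shed.

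The depth on genes was 10531541 to 12948372 fragments per library (medians 12414349 control, 12031597.5 treated). Markers of stratified epithelium were high in every animal (KRT15 603 to 1211 FPKM, DSG3 550 to 971 FPKM), while 3 of the 4 liver and striated muscle markers in the table stayed below 1 FPKM. Smooth muscle markers summed to 13.1 to 31.2 FPKM in control animals and to 4.28 to 23.1 FPKM in treated ones. Control replicate 6 and treated replicate 6 stood apart from the other 10 libraries: of 12642 genes tested, 19.4% were lower and 8.68% higher in both than in all the others. Results are therefore also given without these libraries. In bulk tissue, fewer cells of a type and less RNA per cell cannot be told apart.

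Ribosomal protein genes took a large share of the messages of the ruminal wall. All members together accounted for 7.67 to 10.3% of the counted fragments in control animals (median 8.08%) and 5.89 to 10.6% in treated animals (median 9.06%). On the FPKM scale, which weights short genes more, they made up 21.8% of all summed FPKM in the median control animal and 22.9% in the median treated animal. The mean level of a core gene over the 12 animals had a median of 1487 FPKM. The core genes lay close together, since 59 of the 75 core genes lay within 2-fold of the median and 53 were above 1000 FPKM. Small subunit genes had a median of 1657 FPKM and large subunit genes one of 1354 FPKM (111 to 4210). The fragments behind a core gene in an animal had a median of 11649.5 and were at least 438, so that counting error was 0.93% for the typical value, far below the differences between animals.

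**Figure D1:**
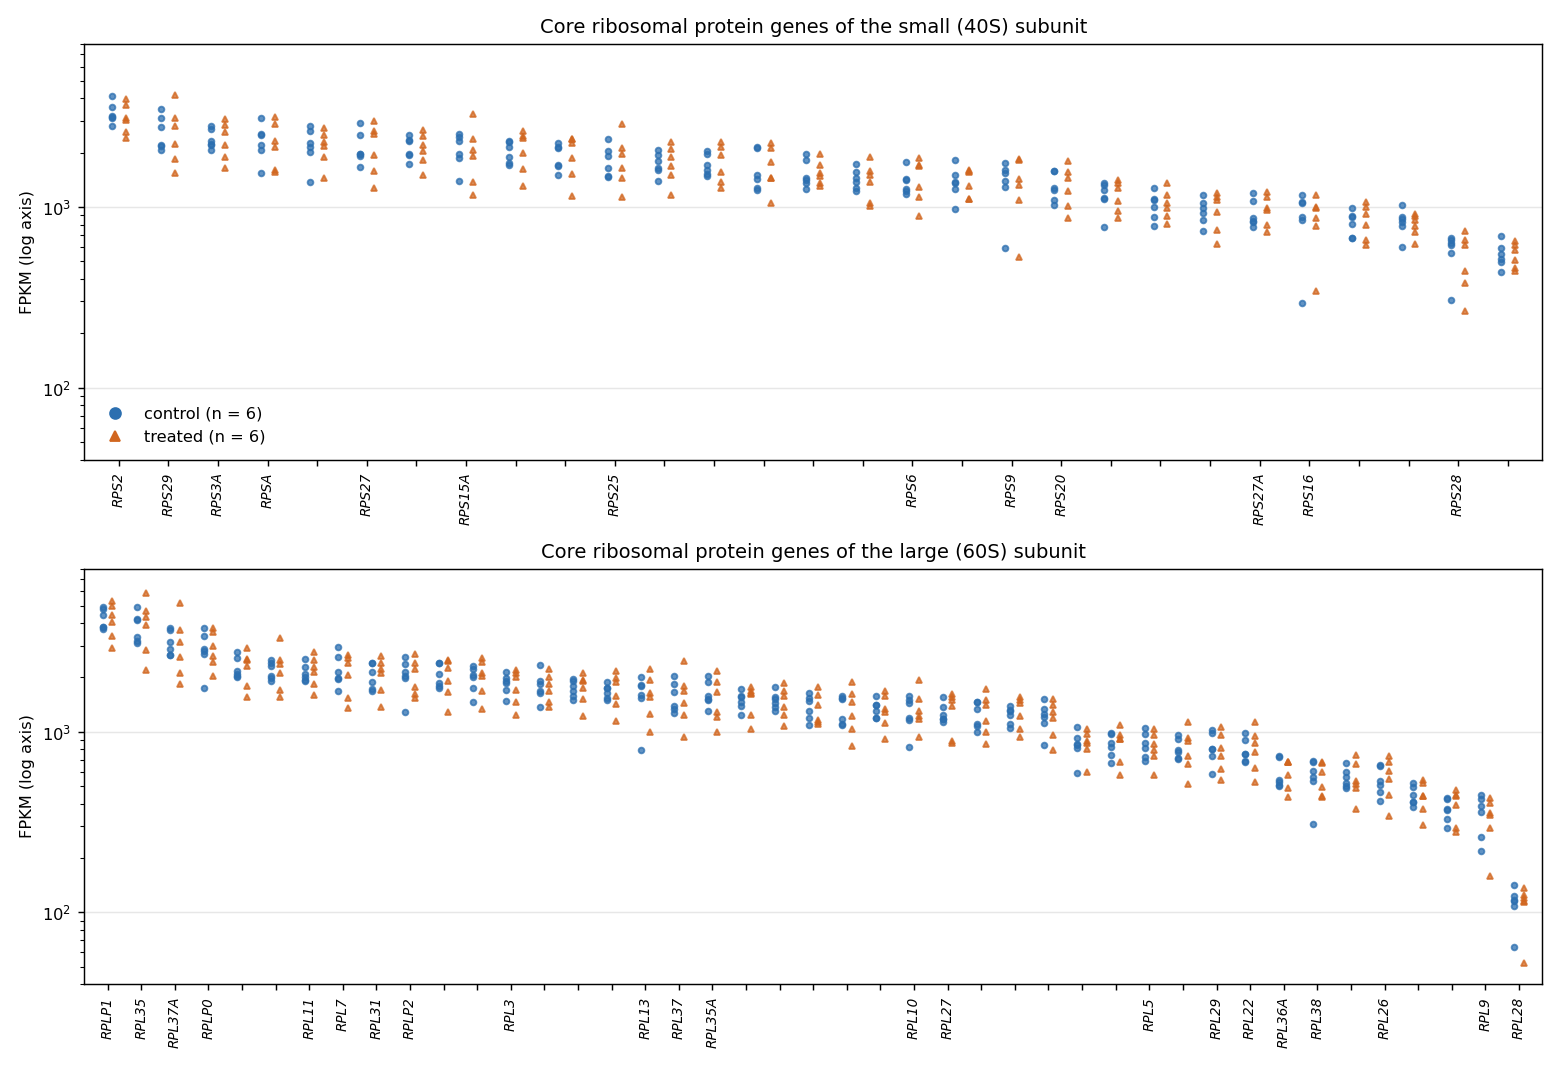
FPKM (log axis) of core genes in each of the 12 animals, with 1 column of points per group and gene, for the 40S subunit (upper panel) and the 60S subunit (lower panel), ordered by mean level and with the genes of the text labelled. Control circles and treated triangles overlap in every gene shown, RPL28 lies lowest at a mean of 111 FPKM, and RPS16, RPS9 and RPL28 each show 1 low point per group.

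Among small subunit genes, RPS2 (102394349), which lies at the channel where the message enters, had 2815, 3159 and 4098 FPKM as the lowest, median and highest control animal and 2422, 3071 and 3958 FPKM in treated animals. RPS29, RPS3A and RPSA had mean levels between 2301 and 2632 FPKM. RPSA, which is also known as the laminin receptor, had 1547 to 3102 FPKM in control and 1572 to 3141 FPKM in treated animals, ranges that nearly coincide. RPS6 (102416178), the small subunit protein that S6 kinases phosphorylate, had a median of 1343 FPKM (1187 to 1781) in control and 1488 FPKM (890 to 1876) in treated animals. RPS27A (102391818), which is made as a fusion with ubiquitin, had a median of 853 FPKM (777 to 1193) and 976 FPKM (724 to 1216). In RPS2, RPS6 and RPS27A the lowest animal was a treated one, and in all of these genes the groups overlapped over most of their range.

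Among large subunit genes, those of the acidic stalk that recruits translation factors were high. RPLP1 (102408148) had 3729, 4123 and 4908 FPKM as the lowest, median and highest control animal and 2909, 4239 and 5291 FPKM in treated animals. RPLP0, which anchors the stalk, had a median of 2848 FPKM (1759 to 3741) in control and 2806 FPKM (2042 to 3773) in treated animals, and RPLP2 had 2084 FPKM (1285 to 2584) and 2003 FPKM (1538 to 2706). RPL35, at the rim of the exit tunnel, had 3767 FPKM (3122 to 4931) and 4115 FPKM (2202 to 5903), and RPL37A had 3017 FPKM (2664 to 3771) and 2869 FPKM (1838 to 5157). RPL5 and RPL11, which carry the 5S RNA into the large subunit together, differed in level. RPL11 (102393707) had a median of 2058 FPKM (1904 to 2532) in control and 2225 FPKM (1599 to 2764) in treated animals, and RPL5 (102394270) one of 842 FPKM (692 to 1045) and 823 FPKM (579 to 1044). The highest RPL5 value lay below the lowest RPL11 value. At the lower end, RPL28 (102392233), a protein that budding yeast lacks, was the lowest core gene in all 12 animals, at 64.6 to 143 FPKM in control and 52.4 to 136 FPKM in treated animals. RPL9 (102404353) was next by mean level and was the second lowest in 8 of the 12. That rank depends on the scaling by length. RPL9, at 1394 bp, had a median of 6120.5 fragments, above RPS28 (2904 fragments, 389 bp) and RPL38 (3355.5 fragments, 477 bp).

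The diet comparison asked whether green feed changed the level of these genes. Of the 84, 82 passed the filter on low values and were tested, and RPL3L and RPL10L did not pass. By limma on log2(FPKM + 0.01), 0 of 82 had a nominal p-value below 0.05 in either direction, beside 1.24% of all genes tested. Over all genes 0.791% were higher and 0.451% were lower in treated animals at that threshold. After Benjamini-Hochberg adjustment over all 12642 genes, 0 of 82 members and 0% of all genes passed, and the smallest adjusted limma p-value of a member was 0.9997. No member had groups that did not overlap (0 of 82), beside 0.0554% of all genes. The 75 core genes had log2 fold changes between -0.19 (RPS28) and 0.07 (RPL10) with a median of -0.012, and all genes tested had a median of 0.0053. The median absolute log2 fold change was 0.025 for the members and 0.095 for all genes. Without control replicate 6 and treated replicate 6, 0 of 82 members had a nominal p-value below 0.05, beside 2.48% of all genes, and the median log2 fold change of the core genes was -0.089, with 5 of 75 above 0.

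The intervals state how large a change these 12 animals leave room for. The 95% interval of the log2 fold change lay within 1 unit of 0 for all 75 core genes and within 0.5 (1.41-fold) of 0 for 58 of them. Of all genes tested, 85.3% and 43.1% had intervals within these bounds. The typical interval of a core gene reached 0.39 to either side, with a standard error of 0.18. Among the core genes whose interval crossed 0.5 in either direction were RPS16 (-0.76 to 0.73), RPS9 (-0.75 to 0.63) and RPS28 (-0.75 to 0.37), which had the largest spread between animals. Without both libraries numbered 6, where 10 animals remain, 44 core genes had intervals within 0.5 of 0.

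**Figure D2:**
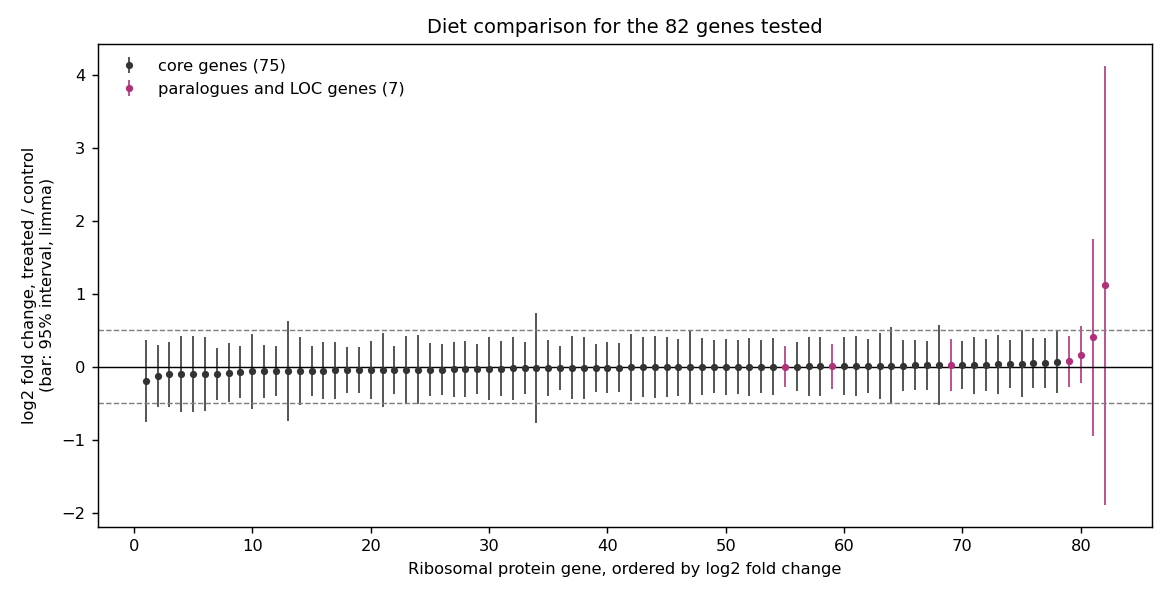
Log2 fold change of treated over control animals (points) with 95% limma intervals (bars) for the 82 genes tested, ordered by size, with core genes in black and paralogues and LOC genes in purple. Every interval takes in 0, the core genes lie between -0.19 and 0.07, and the dashed lines at 0.5 and -0.5 enclose the intervals of 58 of the 75 core genes.

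RPS28 (102400270), a small subunit protein near the exit of the message, had the smallest p-value of the core genes. It measured 305, 624 and 677 FPKM as the lowest, median and highest control animal and 266, 530 and 740 FPKM in treated animals. The log2 fold change was -0.19 ± 0.26 (SE, n = 6 per group), with a nominal limma p-value of 0.477 and a two-sided exact permutation p-value of 0.515. The lowest value of each group was in the library numbered 6, and treated animals 1 and 2 were also low, at 442 and 380 FPKM. RPL35A (102392519) had a median of 1556 FPKM (1303 to 2047) in control and 1476 FPKM (1001 to 2186) in treated animals, with a log2 fold change of -0.13 ± 0.20. RPL7 (102395506) had medians of 2060 FPKM (1674 to 2958) and 2236 FPKM (1360 to 2651) and a log2 fold change of -0.10 ± 0.21, so that its median and its mean log2 value differed in direction. RPS2, RPL3 and RPL29, also among the members with the smallest p-values, had log2 fold changes of -0.09 ± 0.17, -0.07 ± 0.17 and -0.08 ± 0.19. RPL10 (102401118), one of the last proteins to join the large subunit, had the largest core value above 0, with medians of 1315 FPKM (820 to 1584) in control and 1265 FPKM (938 to 1946) in treated animals and a log2 fold change of 0.07 ± 0.20. The stalk genes RPLP0, RPLP1 and RPLP2 had log2 fold changes of 0.02 ± 0.21, -0.04 ± 0.18 and -0.01 ± 0.20. RPS6, RPS27A, RPL5 and RPL11 had log2 fold changes of 0.02, 0.06, -0.05 and 0.02, each with a standard error between 0.16 and 0.19.

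Animals within a group differed in the level of these genes, and the core genes moved together. The summed FPKM of all members had 107057, 114335 and 143757 as its lowest, median and highest value among control animals and 81978, 126462 and 147347 among treated animals. Treated replicate 1 was lowest and treated replicate 5 highest of all 12, a span of 1.80-fold, and the control animals lay between them. The treated median was 1.11 times the control median with all animals and 1.01 times without the libraries numbered 6, and the ratio of the group means was 1.00. Treated replicate 1 was the lowest animal for 55 of the 75 core genes, and treated replicate 5 was the highest for 30, treated replicate 6 for 29 and control replicate 4 for 11. Over pairs of core genes, the mean correlation of the deviations from the group means was 0.67 over 12 animals, beside 0.024 for pairs of all genes tested, 0.28 for mitochondrial ribosomal protein genes and 0.30 for ribosome biogenesis genes. These correlations share the libraries and their scaling and are given as a description.

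Both subunits kept pace with each other. The summed FPKM of the 40S genes was 0.80 to 0.85 times that of the 60S genes in all 12 animals, with a median of 0.818 in control and 0.816 in treated animals. The order of the core genes was close to the same in every pair of animals, with rank correlations of at least 0.964 over the 45 pairs without the libraries numbered 6 and of 0.846 to 0.992 over all 66 pairs. The within-group SD of a core gene had a median of 0.30 on the log2 scale, and 0.36 for all genes tested. Once the mean core level of each animal was taken out, 0.14 remained, and 0.071 without the libraries numbered 6.

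In the treated group, the animals with the lowest core levels were also low in fibroblast and smooth muscle markers. The geometric mean FPKM of the 75 core genes in the treated group was 933 in replicate 1 and 1111 in replicate 2, and 1319 to 1660 in the other 4. The geometric mean of the 6 fibroblast markers was 2.41 and 4.68 FPKM in those 2 animals, and 8.35 to 20.1 FPKM in the other 4. The 6 smooth muscle markers had geometric means of 0.482 and 0.265 FPKM there, and 0.596 to 2.69 FPKM in the other 4. In the control group, replicates 2 and 5, at 1206 and 1225 FPKM for the core genes, had the lowest fibroblast levels of their group, 5.50 and 9.60 FPKM. Their smooth muscle levels were 1.85 and 2.23 FPKM, beside 3.06 to 3.93 FPKM in control replicates 1, 3 and 6. Their endothelial levels were 3.48 and 1.67 FPKM, in a group range of 1.67 to 5.51 FPKM. Their epithelial levels were 276 and 320 FPKM, in a group range of 207 to 320 FPKM. Control replicate 4 went the other way, with the highest core level of its group (1617 FPKM) and the lowest smooth muscle level (1.37 FPKM). Control replicate 6, of the libraries that stood apart, was lowest for the core genes at 1174 FPKM and had a fibroblast level of 24.0 FPKM. Summed over the 6 fibroblast markers, control animals had 40.8 to 258 FPKM and treated animals 17.5 to 172 FPKM, and CNN1 and ACTG2 of the smooth muscle markers were at 0 in at least 1 treated animal. When limma was given the mean log2 FPKM of 9 stromal genes (smooth muscle and fibroblast) as a covariate, the median log2 fold change of the members was 0.18, with 78 of 82 above 0. The smooth muscle markers themselves had a median geometric mean of 2.65 FPKM in control and 1.03 FPKM in treated animals. The groups overlapped (1.37 to 3.93 and 0.265 to 2.69 FPKM), and this difference was not tested. Diet and stromal content cannot be told apart in this fit, and no direction is read from it. RPL27, a large subunit gene, was then the only member with a nominal limma p-value below 0.05, at 0.0344, with a log2 fold change of 0.33 ± 0.14 (SE) and an adjusted limma p-value of 0.9999. With that covariate 2.51% of all genes tested passed the nominal threshold, a larger share than 1 of 82 members. Without treated replicate 1 the median was 0.091, with 76 of 82 above 0.

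**Figure D3:**
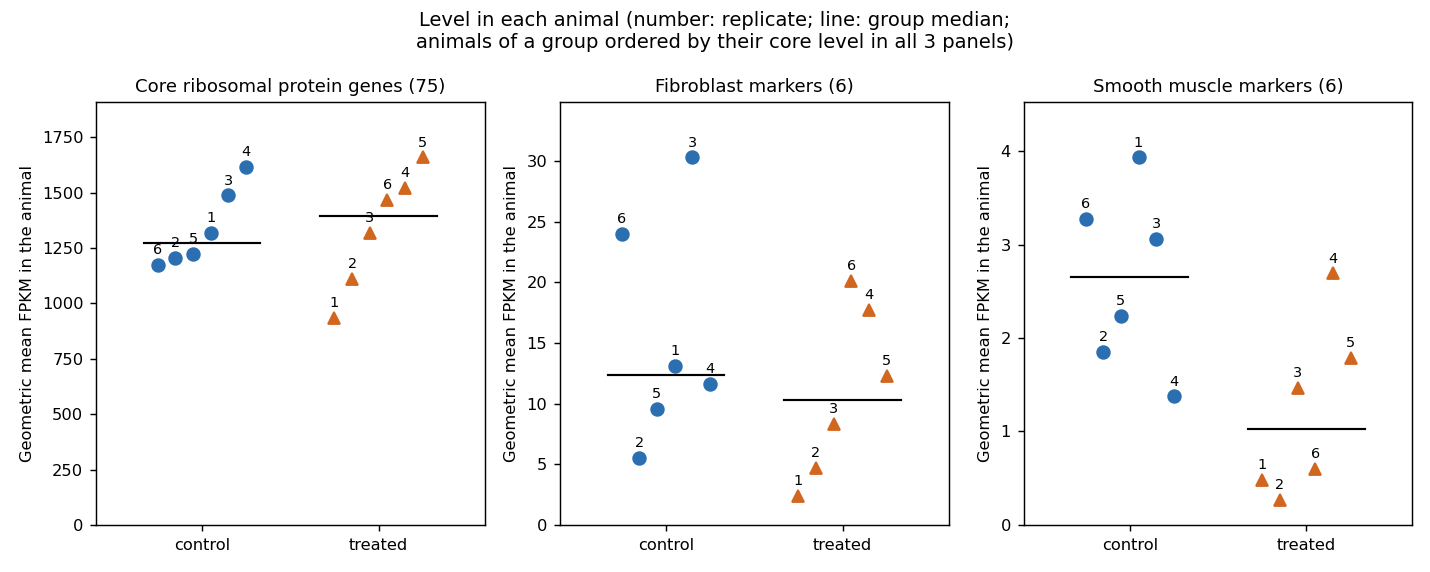
Geometric mean FPKM in each animal for the 75 core ribosomal protein genes, 6 fibroblast markers and 6 smooth muscle markers, with the animals of a group ordered by their core level in all panels, replicate numbers beside the points and lines at the group medians. Treated replicates 1 and 2 are lowest for the core genes (933 and 1111 FPKM) and for the fibroblast markers of their group (2.41 and 4.68 FPKM), while control replicate 6 is low for the core genes and high for the fibroblast markers.

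Control replicate 6 and treated replicate 6 had a common profile of core genes that the other 10 libraries lacked. Each gene was centred on its mean over all libraries, and the mean core level of each library was taken out. The SD over the 75 genes was then 0.38 and 0.41 on the log2 scale in these libraries and 0.093 to 0.18 in the others. The profiles of both correlated with each other at 0.857 across the 75 genes, and with those of the other 10 libraries at -0.74 to -0.34. Centring the genes by itself pushes libraries that stand apart together towards each other and below 0 against the rest. The negative values are therefore not read as an opposite profile. These correlations rest on genes measured in the same libraries and are a description. In unadjusted FPKM, 6 of the 75 core genes were lower in both than in all 10 others, a smaller share than the 19.4% of all genes tested. Another 9 of the 75 were higher in both, near the share of 8.68% of all genes tested. Neither count is particular to the core genes.

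The 6 lower genes were RPS16, RPS9, RPL28, RPS28, RPL13 and RPL38. RPS16, whose tail reaches the decoding site, had 296 FPKM in control replicate 6 and 344 FPKM in treated replicate 6, and 785 to 1173 FPKM in the other 10. RPS9, near the entry of the message, had 590 and 532 FPKM, and 1097 to 1852 FPKM in the others. RPL13 had 798 and 998 FPKM beside 1263 to 2236 FPKM, and RPL28 had 64.6 and 52.4 FPKM beside 108 to 143 FPKM. The 9 higher genes were RPS29, RPL37A, RPS25, RPS15A, RPL37, RPL35, RPL35A, RPS20 and RPL31. RPS29 had 3484 and 4174 FPKM beside 1545 to 3124 FPKM, and RPL37A had 3771 and 5157 FPKM beside 1838 to 3678 FPKM. The differences had the same direction in both libraries, 1 of each diet. The deviations of these libraries correlated at -0.25 with gene length on the log2 scale across the 75 core genes. Outside the ribosome, the basal keratin KRT5 was lowest of its group in both, at 451 and 498 FPKM. The labels give no batch for these libraries, and what sets them apart was not tested. RPS16 (0.69) and RPS9 (0.62) also had the largest within-group SD of the core genes on the log2 scale.

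**Figure D4:**
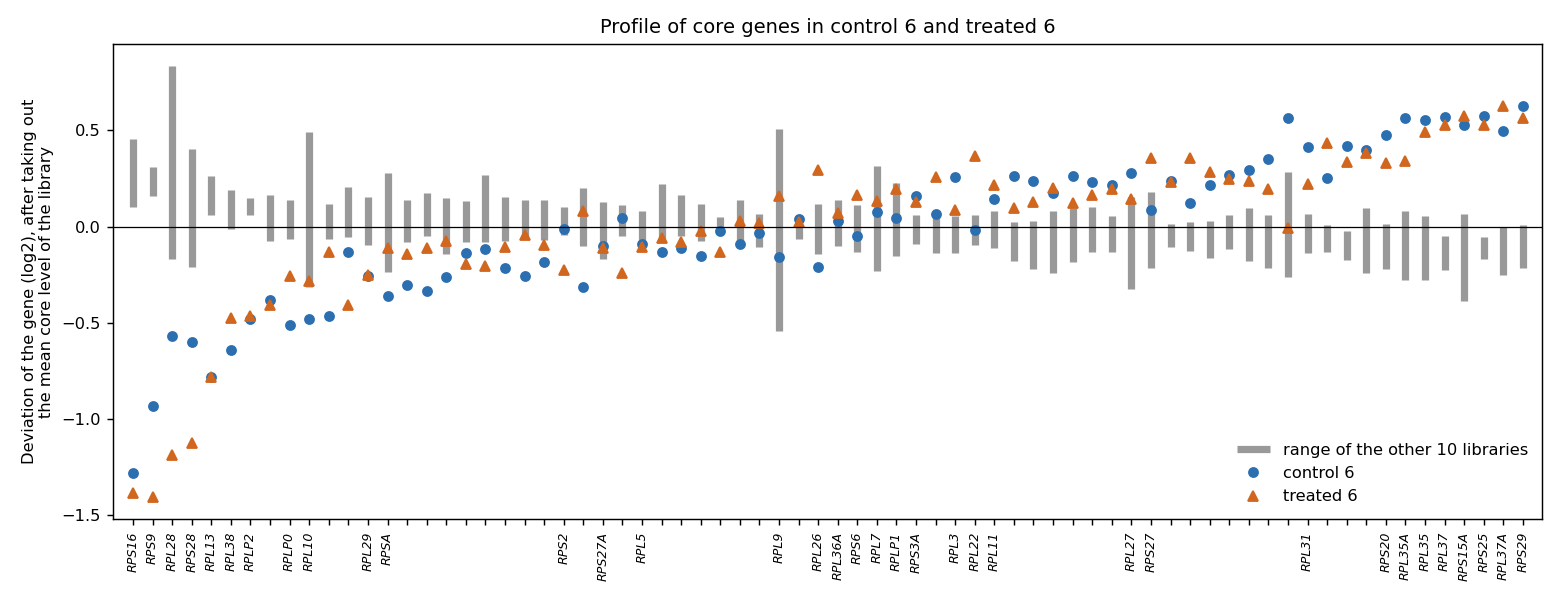
Deviation (log2) of core genes from their mean over all libraries, after the mean core level of the library is taken out, with genes of the text labelled. Circles are control 6, triangles are treated 6, and grey bars give the range of the other 10 libraries. RPS16 and RPS9 lie more than 0.9 below 0 in both libraries, outside the range of the others, and RPS29 and RPL37A lie about 0.5 to 0.6 above 0 in both.

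Ribosomal protein L9 was represented by 3 genes, and the division of fragments among them differed between animals. RPL9, a large subunit gene, carried most of them, with 220, 373 and 445 FPKM as the lowest, median and highest control animal and 159, 350 and 432 FPKM in the treated group. LOC102394865 had 18.5, 58.0 and 82.2 FPKM in control and 9.24, 68.6 and 218 FPKM in treated animals. Treated replicates 2 and 4 stood above every other animal, at 188 and 218 FPKM, and treated replicate 1 and control replicate 5 below, at 9.24 and 18.5 FPKM. LOC112585098 had 2 to 13 fragments in 11 animals and 3284 fragments, or 377 FPKM, in treated replicate 4. RPL9 had more fragments there (4923) but a lower FPKM (293), since its gene length is 1394 bp and that of LOC112585098 is 721 bp. The LOC genes together took 3.0 to 10.6% of the fragments of the 3 genes in 10 animals, 21.7% in treated replicate 2 and 51.3% in treated replicate 4. RPL9 itself was not high in these 2 animals, at 354 and 293 FPKM. Relative to the geometric mean of the core genes, the sum of the 3 genes was 0.489 and 0.584 in these 2 animals and 0.180 to 0.421 in the other 10.

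**Figure D5:**
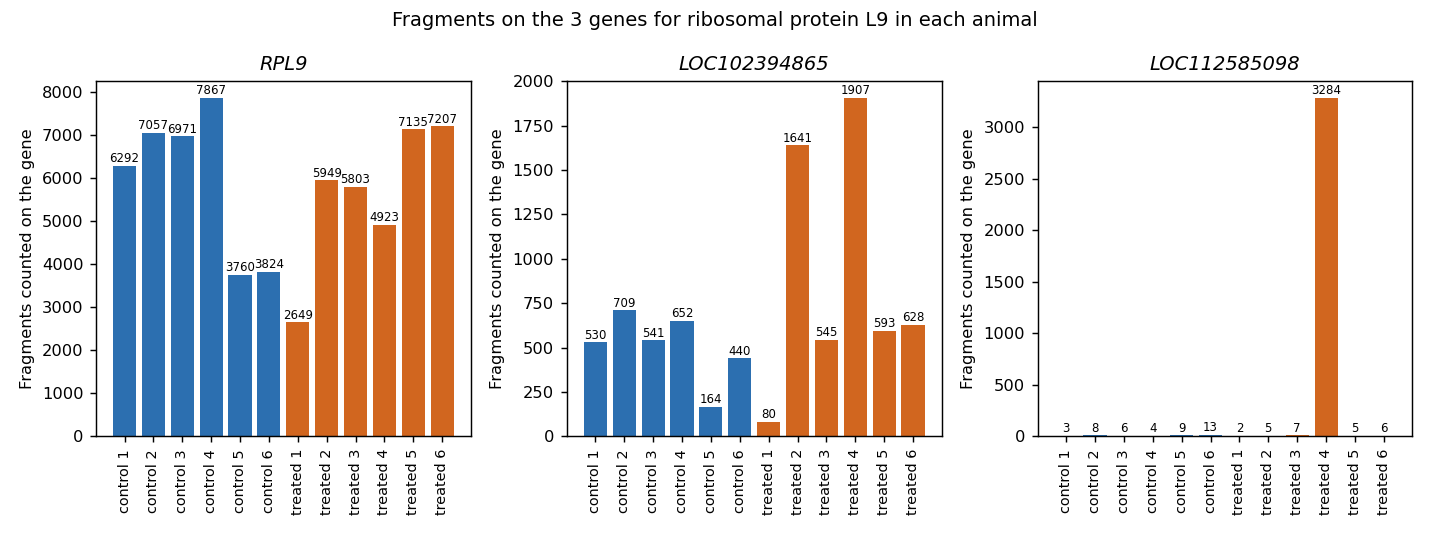
Fragments counted on RPL9, LOC102394865 and LOC112585098 in each of the 12 animals, control in blue and treated in orange, each panel with its own axis from 0. LOC112585098 has 3284 fragments in treated replicate 4 and 2 to 13 elsewhere, and LOC102394865 has 1641 and 1907 fragments in treated replicates 2 and 4 and 80 to 709 elsewhere.

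Neither LOC gene passed the test of the diets in all 12 animals. LOC102394865 had a log2 fold change of 0.40 ± 0.63 (SE, n = 6 per group), with a nominal limma p-value of 0.533 and an exact permutation p-value of 0.563. Without treated replicate 1 it was 0.99 ± 0.42 with a nominal limma p-value of 0.0374 and an adjusted p-value of 0.9998, where 1.43% of all genes passed the nominal threshold. LOC112585098 had a fitted log2 fold change of 1.12 ± 1.40, which rests on treated replicate 4, and an exact permutation p-value of 0.823. Only fragments with a mapping quality of at least 30 were counted, and the counting gives no separate record of reads that fit more than 1 gene. The sequences of the 3 genes were not compared here, and the split of reads between them is therefore uncertain.

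The paralogues, related genes that code for variants of a ribosomal protein, were expressed at a small percentage of their parent gene, with 1 exception. RPL36AL (102408333) reached 57.7 to 66.3% of RPL36A in control animals (median 64.4%) and 52.4 to 77.3% in treated animals (median 61.7%). RPS27L (102395646), known as a target gene of p53, had 81.6, 88.0 and 114 FPKM as its lowest, median and highest control value and 80.2, 90.2 and 158 FPKM in treated animals, a median of 4.28 and 4.68% of RPS27. RPL7L1 (102393762) stood at 2.27 and 2.51% of RPL7, RPL22L1 (102401482) at 2.41 and 2.53% of RPL22, and RPL26L1 (102411500) at 1.53 and 1.61% of RPL26, as medians of control and treated animals. The ratio of paralogue to parent did not pass the test in any of the 5 pairs compared, with exact permutation p-values between 0.532 and 0.983 and an adjusted p-value of 0.983 for each. RPL26L1 had the smallest p-value of all members in the diet comparison, with 7.91 ± 2.09 FPKM in control and 8.67 ± 1.17 FPKM in treated animals (SD, n = 6) and an exact permutation p-value of 0.379. RPL3L, the variant of RPL3 in heart and skeletal muscle, had 8 fragments over 3 animals, and RPL10L, a variant of RPL10 known from testis, had 1 fragment in 1 animal. All animals were at or near the floor of 3 fragments for these genes, and no fold is given.

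Genes that work with the ribosomal proteins are given by lists. Among partners with names of their own, FAU, RACK1, NACA and BTF3 had log2 fold changes of -0.03 ± 0.16, -0.08 ± 0.17, 0.06 ± 0.15 and 0.09 ± 0.15 (SE), and none passed a nominal p of 0.05 by limma. RACK1, a scaffold on the small subunit, and FAU, which codes for RPS30, had 2118 and 1129 FPKM on average. Translation factors with TOP messages had 0 of 16 and a median of -0.025, led by TPT1 at 2145 FPKM and EEF1A1, the elongation factor that brings transfer RNA, at 1838 FPKM. Genes of ribosome biogenesis (0 of 30, median -0.0047), of ribosome quality control and 5S assembly (0 of 11, median -0.032) and of mitochondrial ribosomal proteins (0 of 78, median 0.039) had none past that threshold either. Of the 15 genes for control of TOP messages by mTOR, 1 was higher and 0 lower, with a median of 0.034. Beside these lists, 1.24% of all genes tested passed the nominal threshold, 0.791% higher and 0.451% lower. A single gene over all the lists is not read as particular to them. That gene was MLST8, a subunit shared by both mTOR complexes, which the paper also reports as higher in treated animals. It had 43 to 103 fragments per animal. MLST8 had 2.22, 2.53 and 3.45 FPKM as the lowest, median and highest control animal and 3.15, 3.80 and 5.26 FPKM in treated animals, with a log2 fold change of 0.61 ± 0.17 and an exact permutation p-value of 0.00649. The adjusted limma p-value was 0.9997, and the groups overlapped.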

How the data were processed

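The authors trimmed the reads with Trimmomatic 0.39 and aligned them with STAR 2.5.2b to UOA_WB_1. Pairs were counted per gene and strand with featureCounts 2.0.0, keeping a mapping quality of 30 or more. The authors deposited FPKM. Of 16 columns, 12 matched the labels by title and 4 were not used. Replicates are the 6 animals of each group, numbered as in the sample labels.

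Library totals and fragments per gene were recovered from the FPKM, and values of all 22972 genes above 0 came out whole within 0.01. The 12642 genes reaching the study's threshold of about 42 TMM-scaled fragments in at least 1 animal were tested with limma 3.58.1 (R 4.3.3) on log2(FPKM + 0.01), with a variance trend and Benjamini-Hochberg adjustment. Fold changes are therefore on that scale, which understates those of low genes. The nominal threshold of 0.05 is given because the study used it. Paralogue ratios and single genes were tested by two-sided exact permutation over 924 assignments (smallest possible p-value 0.00216). The pipeline was tested on simulated data. Python 3.11.15 was used for the other steps.

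Members and lists were chosen with earlier results of these data known. Genes were named by rule: the 10 highest and 5 lowest members, the 10 smallest p-values, the L9 genes, the paralogues with their parents, and RPSA, RPLP0, RPLP1, RPLP2, RPS6, RPS27A, RPL5 and RPL11. The genes that set the libraries numbered 6 apart, RPL10, RPL28, RPL27 and KRT5 were named after their values were seen. Some genes that the rule names are not reported here. Of the 84 members, 80 had their identifier and 78 the same symbol in the RefSeq gene table of another assembly, from which no coordinates were taken. Alternatives were pseudocounts of 0.1 and 1, other filters and scalings, robust fitting, voom on the recovered fragments, a block, a stromal score, and each animal left out. Leaving out both libraries numbered 6, leaving out animals from the summed level, and a covariate of the mean core level were added after seeing the data. That covariate takes out any change shared by the members by construction, and nothing is drawn from it.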

Additional observations from a re-analysis of the deposited data

Results flagged for a closer look

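Groups of 6 animals were searched for 1 animal farther from the rest than Dixon's 95% critical value allows, on the log2(FPKM + 0.01) scale. Such an animal was found in 6 of 71 groups, and chance alone marks about 1 in 20 groups. The 71 groups do not cover every member. RPS16, RPS9, RPL13, RPL28 and RPL38, low in the libraries numbered 6, were not among the genes searched. The 6 groups are therefore not a full count. LOC112585098 had 377 FPKM in treated replicate 4 and 0.232 to 0.808 FPKM in the other treated animals. LOC102394865 had 18.5 FPKM in control replicate 5 and 57.7 to 82.2 FPKM in the other control animals. RPS28 had 305 FPKM in control replicate 6 and 558 to 677 FPKM in the others. RPS27L had 158 FPKM in treated replicate 6 and 80.2 to 103 FPKM in the others. RPL3L had 0.0483 FPKM in treated replicate 5, which is 1 fragment, and RPL10L had 0.208 FPKM in treated replicate 2, also 1 fragment, with the other treated animals at 0. Where 5 animals are at 0 any single fragment passes the criterion, so that the values of RPL3L and RPL10L say nothing more. The RPS28 and RPS27L values are in the libraries that stood apart.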

How the results depend on the processing

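The count of members with an adjusted p-value below 0.05 was 0 under every alternative run. The count of members higher in treated animals at a nominal p-value below 0.05 was 1 with the smooth muscle and fibroblast score (RPL27), and between 0 and 1 when each animal was left out in turn, with LOC102394865 as the 1 without treated replicate 1. The median log2 fold change over members was -0.012 to -0.0055 in the 9 settings that changed only the pseudocount, filter, scaling, fit or block, and -0.075 (without treated replicate 5) to 0.091 (without treated replicate 1) when animals were left out, with 8 to 76 of 82 above 0 (8 without treated replicate 4 or 5, 12 and 18 without control replicate 2 or 5, 56 and 66 without control replicate 3 or 4, 65 and 76 without treated replicate 2 or 1, beside 33 with all animals). It was -0.088 without both libraries numbered 6. The treated to control ratio of the median summed level was 1.10 to 1.12 under other scalings and sets of members, 1.02 to 1.19 with 1 animal left out and 1.01 without both libraries numbered 6, and no direction is read from it. Of 792 values under alternatives for the 33 tested genes that the naming rule took, RPL27 not being one, 1 passed a nominal p-value of 0.05. When the replicate number was a block, 0 of 82 members passed and the median stayed at -0.0072, while 322 of all genes passed a nominal p-value of 0.05 in place of 157. The correlation of deviations between same-numbered animals was -0.0134 to 0.416 with a mean of 0.213, beside -0.039 for the 30 other pairs, and 4 of 6 numbers matched best with themselves. Because the labels give the same number to different animals and the correlations of numbers 1 and 5 were at or below 0.1, pairing was not assumed. Without a filter 562 genes passed nominally, with a filter of 0.1 FPKM in 6 animals 301, and with the score as a covariate 317. At a counting error of 0.93% for the typical core value, the within-group SD of 0.30 (log2) over 6 animals sets the precision of the core genes, while RPL3L and RPL10L were limited by depth.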

Other observations

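RPL10 had its highest value in treated replicate 4, chosen here after its values were seen. It had 1946 FPKM there and 820 to 1584 FPKM in the others, and it was not among the values flagged above. The geometric mean of the core genes in that animal was 1522 FPKM, in a range of 933 to 1660 FPKM over all animals.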
